A study of Rattus norvegicus with 241 samples.

Results

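The genes described here are 49 named genes of the G2 and M phases of the cell cycle, chosen by name and matched ignoring case in every bulk and single-cell table. The bulk tables held 15826 genes, of which 44 were members in most tables and 43 in all of them. CKAP2L, NCAPD2, ANLN, CKAP5 and CENPE were in none of the bulk tables used here, and PSRC1 was missing from the CD45+ tables of adult and estradiol-treated rats. The single-cell tables held 15586 (sorted ACI), 16437 (sorted SD) and 18237 genes (SD glands) and 47 members, without CCNB2 and LBR.

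A cell that has copied its DNA makes a wave of transcripts for mitosis, which are read in G2 and are largely gone after division. CDK1 with its cyclin partner opens mitosis, Aurora and polo kinases build and correct the spindle, kinetochore proteins tie chromosomes to it, the anaphase-promoting complex destroys cyclins, and a last set of proteins cuts the cell into its daughters. In a tissue these transcripts mark how many cells are close to division, and in the peripubertal mammary gland dividing cells drive the growth of the ducts.

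The compound tested was LY2157299, an inhibitor of the type I TGFB receptor kinase (TGFBRi), given by gavage at 75 mg/kg 2 times a day and compared with vehicle in female ACI rats, an inbred strain, and SD rats, an outbred strain. Dosing of young ACI rats began at 35 days of age, went on for 10 days, and was followed by sampling 0, 7 or 14 days after the last dose (3 rats for each day and treatment), while young SD rats, first dosed at 24 days of age, were sampled at its end (4 rats for each treatment). Adult virgin and parous ACI rats (18 to 24 weeks) were dosed for 10 days and sampled 0 days after the last dose (4 rats for each parity and treatment). Their CD45+ cells came from 4 and 3 virgin and 2 and 4 parous rats of vehicle and TGFBRi. In the estradiol (E2) set, dosing of ACI rats began at 38 days of age and took 21 days, and at 60 days of age they received an implant holding air (4 vehicle, 3 TGFBRi) or 37 mg of E2 (4 tumor-bearing vehicle, 2 tumor-bearing TGFBRi and 4 tumor-free TGFBRi rats). In the NMU set, SD rats dosed from 21 days of age received 50 mg/kg of the carcinogen N-methyl-N-nitrosourea and were sampled on day 87 after it as tumor-bearing vehicle, tumor-bearing TGFBRi and tumor-free TGFBRi rats (3 each), with tumors from the tumor-bearing rats. Basal (CD24+CD29high), luminal (CD24+CD29low) and CD45+ cells were sorted from glands, EPCAM+ and CD45+ cells from tumors. Single cells came from sorted basal and luminal cells of young ACI rats (3 and 3) and young SD rats (3 vehicle, 6 TGFBRi) and from unsorted SD glands (3 vehicle, 6 TGFBRi). The rats of all single-cell sets were dosed for 10 days and sampled 0 days after the last dose. Each sample came from 1 rat, so that p-values measure the spread between rats.

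Between 4194912 and 52314784 reads fell on genes per bulk sample, and the median cell of a single-cell library held 2820 to 15941 transcripts counted by molecular identifier (UMIs). Fewer dividing cells and fewer transcripts per dividing cell cannot be told apart in a bulk sample. Marker genes followed the sorts in part. In young ACI rats the mean log2 level of 9 basal markers was 8.25 to 10.03 in the basal and 2.14 to 2.96 in the luminal sort. Luminal markers (keratins and EPCAM), however, stood at 8.42 to 9.67 in the basal sort, against 11.32 to 12.34 in the luminal sort. In NMU rats the CD45+ sort held fibroblast markers at 8.60 to 10.48, above its leukocyte markers at 5.09 to 7.42. The third vehicle rat of day 7 in the young ACI set carried descriptions naming treatment on its basal and luminal samples, against their titles and tags. It was kept as vehicle, and results that changed without it are given below. Cell barcodes shared by a pair of libraries came to at most 0.228% of the smaller library in ACI sorts, 0.516% in SD sorts and 2.51% (284 barcodes) in glands.

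Many promoters of mitotic genes are bound by the DREAM and MuvB complexes through a short element called CHR, next to CCAAT boxes bound by NF-Y. Starts and promoters of 44 of the 49 members matched the RefSeq table for the rat build GRCr8, and AURKB, CDCA2, RACGAP1, TPX2 and UBE2C had no entry. From 250 bases before to 50 bases after the start, the CHR letters TTTGAA were found on either strand in 30 of the 44 (68.2%), against 18.1% of 27457 rat promoters. CCAAT was found on either strand in 35 members (79.5%) against 37.7% of all promoters, and both motifs in 26 members (59.1%) against 7.3%. BUB1, AURKA, KIF2C, GTSE1 and HJURP held neither set of letters in this window. The 250 bases before the start are printed for 5 members whose values recur below, in the direction of transcription, with both motifs in capitals; TTCAAA and ATTGG are the same motifs on the other strand. Positions count the start base as 0. PRC1 (chr1:143659231-143659480, plus strand) holds CHR at -18 and CCAAT at -239 and -50. MKI67 (chr1:199952594-199952843, minus strand) holds CHR at -117 and -99 and CCAAT at -189, -167, -142 and -94, the last sharing its first base with the CHR before it. CDC20 (chr5:137255800-137256049, minus strand) holds CHR at -51 and CCAAT at -86 and -41, BIRC5 (chr10:103571896-103572145, plus strand) CHR at -8 and CCAAT at -213, and CDK1 (chr20:19265043-19265292, plus strand) CHR at -72 and -16 and CCAAT at -210, -81 and -49.
PRC1: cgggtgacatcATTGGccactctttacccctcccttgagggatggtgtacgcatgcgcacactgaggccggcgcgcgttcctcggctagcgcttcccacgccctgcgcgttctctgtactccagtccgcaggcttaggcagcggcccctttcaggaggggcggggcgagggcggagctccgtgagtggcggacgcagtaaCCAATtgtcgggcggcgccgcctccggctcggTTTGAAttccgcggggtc
MKI67: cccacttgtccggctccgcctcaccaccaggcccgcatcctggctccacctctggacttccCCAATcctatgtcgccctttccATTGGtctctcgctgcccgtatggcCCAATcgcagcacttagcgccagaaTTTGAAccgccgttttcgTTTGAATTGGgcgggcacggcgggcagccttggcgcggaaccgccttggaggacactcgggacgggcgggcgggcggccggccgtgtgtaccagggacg
CDC20: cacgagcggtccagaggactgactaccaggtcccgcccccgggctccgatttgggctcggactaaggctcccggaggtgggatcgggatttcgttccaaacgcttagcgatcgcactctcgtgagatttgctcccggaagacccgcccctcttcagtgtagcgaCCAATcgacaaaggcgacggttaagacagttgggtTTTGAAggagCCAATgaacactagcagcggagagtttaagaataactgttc
BIRC5: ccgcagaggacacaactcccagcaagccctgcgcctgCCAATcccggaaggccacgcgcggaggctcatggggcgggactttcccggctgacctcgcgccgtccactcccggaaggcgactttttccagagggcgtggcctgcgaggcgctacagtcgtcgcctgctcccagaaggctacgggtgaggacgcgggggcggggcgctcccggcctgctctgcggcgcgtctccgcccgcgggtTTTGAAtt
CDK1: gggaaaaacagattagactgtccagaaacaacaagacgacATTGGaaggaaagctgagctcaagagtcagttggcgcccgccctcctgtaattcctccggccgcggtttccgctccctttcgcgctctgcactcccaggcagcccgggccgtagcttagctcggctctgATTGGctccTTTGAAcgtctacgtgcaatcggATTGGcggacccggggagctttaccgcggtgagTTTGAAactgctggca

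The level of the members in a sample was taken as the mean over the 43 common members of log2(CPM + 1), where CPM is the deposited value scaled to the same total in each sample, as a description with no test. In vehicle rats the highest group was the basal sort of young ACI rats on day 7 (median 5.71, range 5.14 to 5.93), followed by the luminal sort of the same rats (5.17, 4.57 to 5.89). Day 0 stood at 4.37 in basal and 3.46 in luminal cells, and day 14 at 3.76 and 3.54. Young SD rats lay at 4.25 in basal and 2.77 in luminal cells. Adult ACI glands were lower, at 2.31 (virgin) and 1.76 (parous) in the basal sort and 1.76 and 1.63 in the luminal sort, and NMU glands lay at 1.65 and 1.61. Tumor EPCAM+ cells were at 3.15 in vehicle and 3.88 in TGFBRi rats. The neighbours among adult and NMU glands overlapped rat by rat, and so did EPCAM+ tumor cells with young luminal cells. The sets were scaled separately, and the order of these medians rests on the mean of logs of CPM values. The median summed CPM of the members gave another order in part. It was 1143.2 in basal cells of NMU vehicle glands, above 709.6 in virgin vehicle basal cells and 617.23 in vehicle EPCAM+ tumor cells. The basal sort of young vehicle ACI rats on day 7 stood above these groups on the summed CPM too, at 3717.8.

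**Figure D1:**
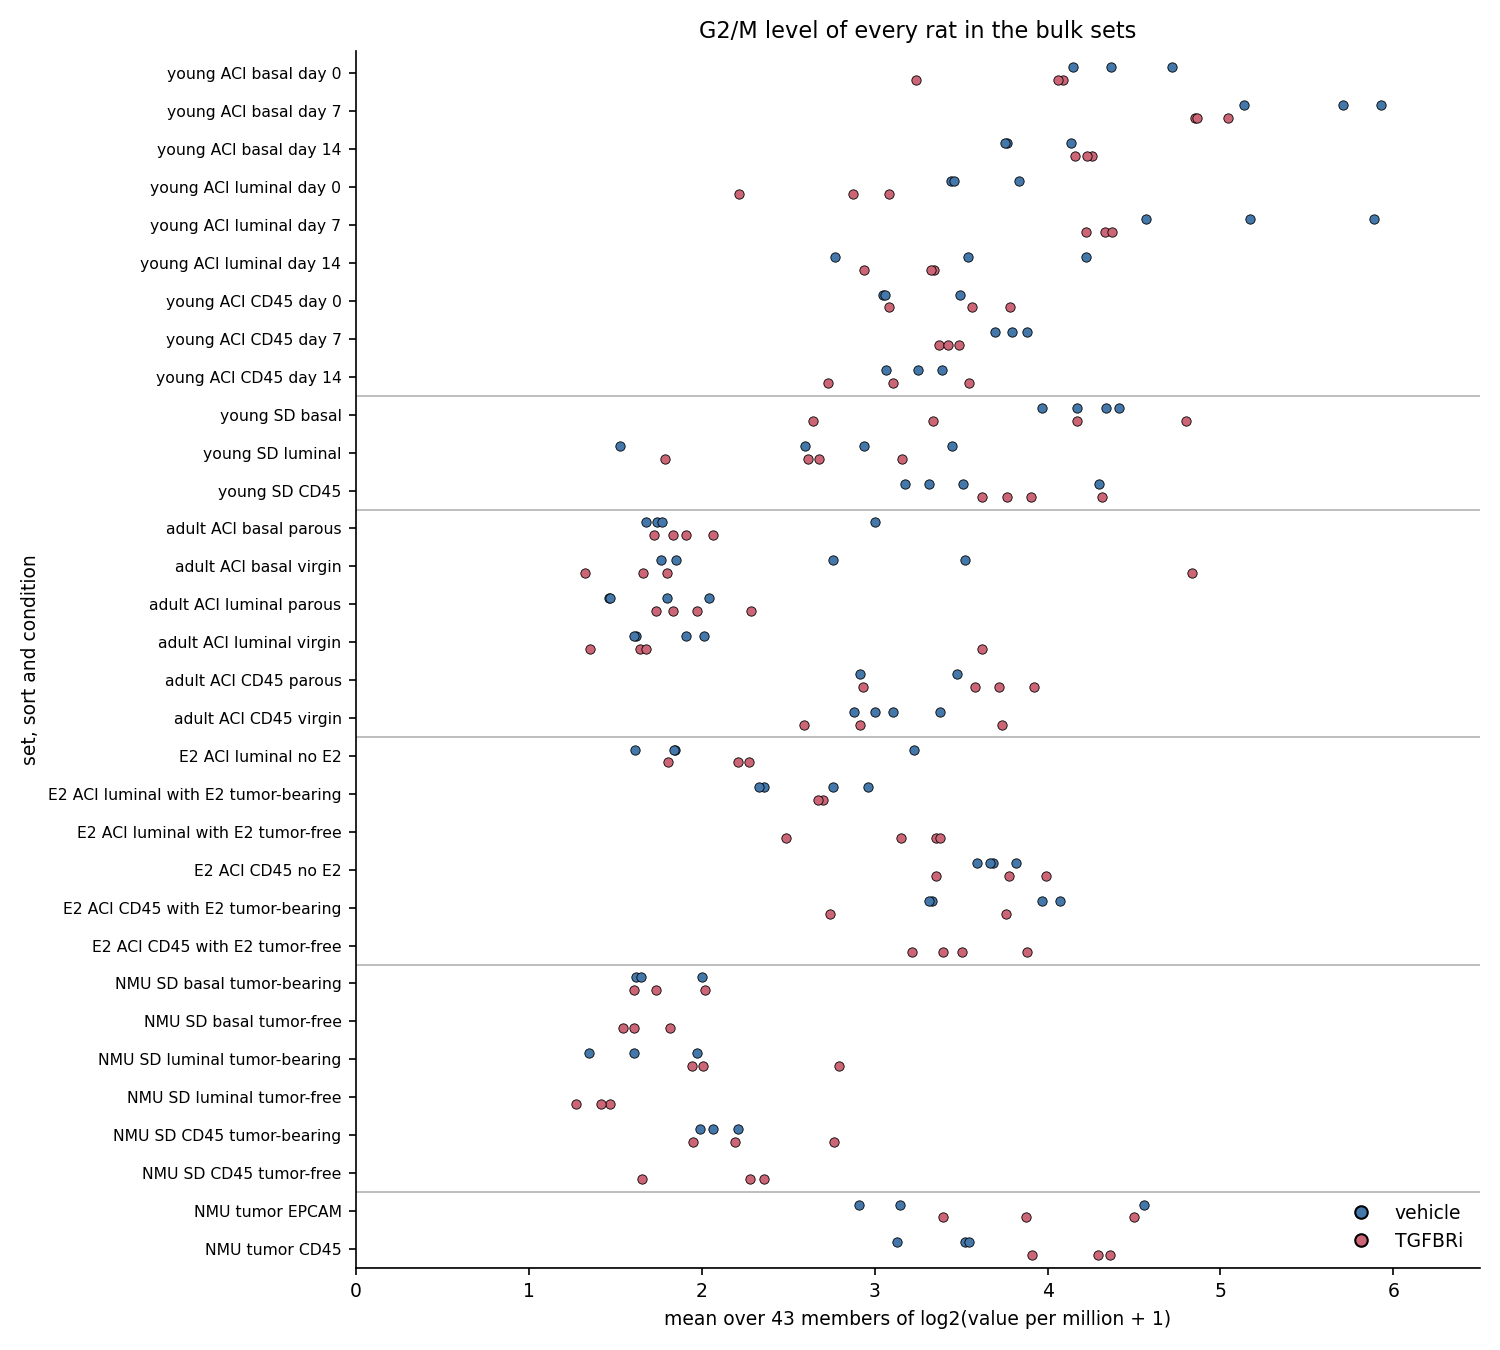
Level of the members in each rat of the bulk sets, as the mean over 43 members of log2(CPM + 1), by set, sort and condition; blue points are vehicle and red points TGFBRi rats. Medians of basal and luminal groups lie between 2.65 and 5.71 in young rats and between 1.42 and 2.31 in adult and NMU rats, and 1 virgin TGFBRi rat stands at 4.83 in the adult basal sort.

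In luminal cells of vehicle-treated young ACI rats 4 of 44 members were higher on day 7 than on day 0. CDC20, the activator of the anaphase-promoting complex, read 1321, 797 and 1444 normalized counts on day 7 against 127, 159 and 189 on day 0 (log2 fold change 2.87, SE 0.44, limma adjusted p = 0.00749). NDC80, an outer kinetochore protein, read 268, 237 and 236 against 32.9, 43.01 and 33.99 (2.73, SE 0.46, adjusted p = 0.0133). AURKA, the centrosome kinase, read 482, 379 and 554 against 154, 157 and 147 (1.60, SE 0.30, adjusted p = 0.0247). PRC1, which bundles the midzone microtubules of the dividing cell, read 1743, 1452 and 1223 against 406, 571 and 369 (1.72, SE 0.37, adjusted p = 0.0455). For these 4 genes each day 7 rat was above each day 0 rat.

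The background in this comparison was 0.685% of 15181 genes called. All 44 members had a positive estimate, with a median of 1.97 beside 0.20 over all genes, and 36 had an unadjusted p under 0.05. Counts of unadjusted p-values, here and below, stand without the share of all genes under 0.05. In 37 members each day 7 rat was above each day 0 rat, as in 15.2% of all genes. These 37 included both members of the anaphase-promoting complex, all 3 of the chromosomal passenger complex, 4 of 5 kinetochore proteins and 5 of 5 cytokinesis proteins. DESeq2 called 33 members and edgeR 3, and without the day 7 vehicle rat of conflicting descriptions limma called 2. The other rats mattered too, with 0 calls without the first and 8 without the second vehicle rat of day 7, and 1, 2 and 1 without each vehicle rat of day 0. The 0.685% belongs to the main fit, and shares of all genes called in these other fits are not given.

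Basal cells of the same rats gave 41 positive estimates of 44 and a median of 1.31 beside -0.03 over all genes. No member passed limma's threshold, beside 0.192% of 15643 genes, although 27 had an unadjusted p under 0.05. DESeq2 called 20 members and edgeR 0, for which shares of all genes called are not given. The smallest p-values belonged to CDC20 (2.61, adjusted p = 0.0555) and KIF20A, a cytokinesis kinesin (1.69, adjusted p = 0.0571). In 31 members each day 7 rat was above each day 0 rat, as in 9.69% of all genes. Day 14 against day 0 gave 0 calls by limma in both sorts. The median was -0.33 in basal cells (background 0.0384%, 5 members with p under 0.05, DESeq2 1, edgeR 0) and -0.05 in luminal cells, turning to 0.09 with DESeq2 and 0.07 with edgeR (background 0.389%, 1 member with p under 0.05, DESeq2 1, edgeR 0). The third vehicle rat of day 7, the one of conflicting descriptions, stood high in a few members in both sorts. Its CDK1 was at 3727 in basal cells, against 964 and 473 in the other two rats, and at 2615 in luminal cells, against 913 and 460. UBE2C, the ubiquitin-conjugating enzyme of the anaphase-promoting complex, read 1901 in luminal cells of this rat against 421 and 213.

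**Figure D2:**
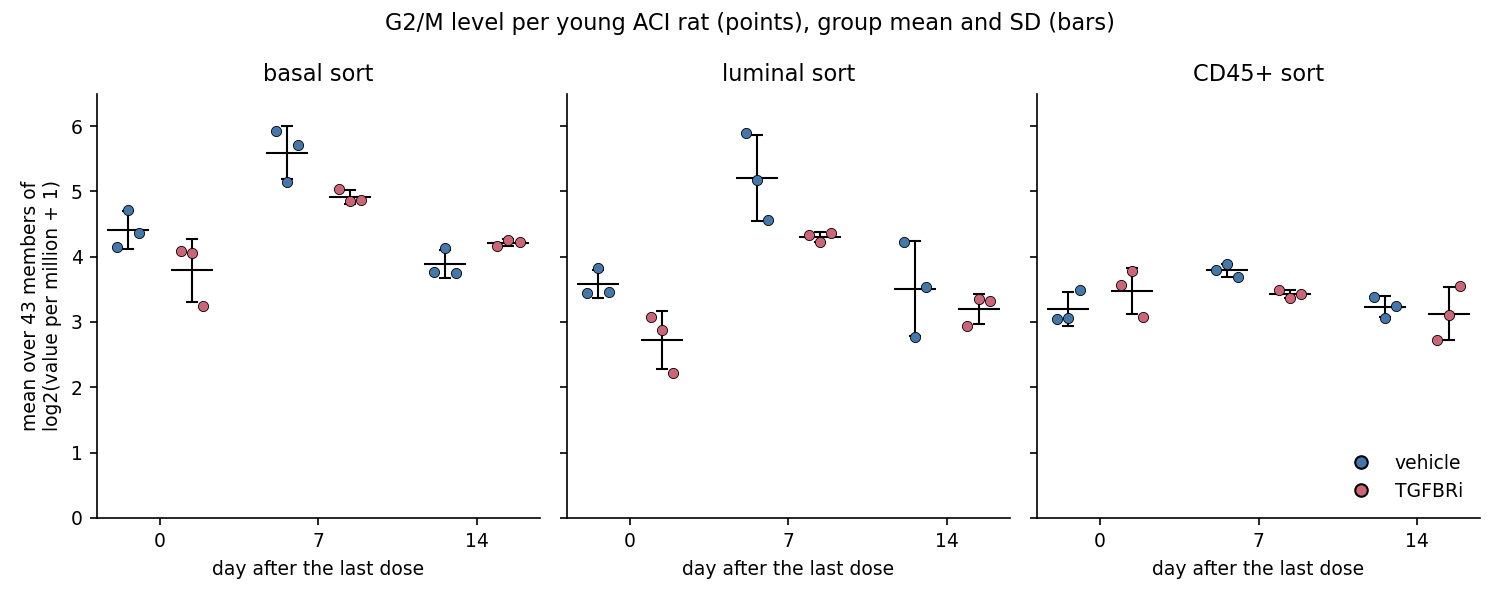
Level of the members in young ACI rats, as the mean over 43 members of log2(CPM + 1) on the vertical axis against the day after the last dose; points are rats (blue vehicle, red TGFBRi), long bars group means and short bars SD, 3 rats a group. On day 0 and day 7 the TGFBRi-treated rats lie below the vehicle rats in basal and luminal cells; on day 14 the groups overlap in luminal cells, and in basal cells the TGFBRi-treated rats (4.16 to 4.25) lie above vehicle (3.75 to 4.14).

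On day 0, at the end of dosing, 3 members were lower in luminal cells of TGFBRi-treated than of vehicle ACI rats. RACGAP1, a subunit of the centralspindlin complex that sets the cleavage plane, read 172, 195 and 107.8 normalized counts in vehicle rats and 9.95, 10.0 and 12.7 in TGFBRi-treated rats (log2 fold change -3.71, SE 0.55, limma adjusted p = 0.0197). Both other called genes belong to the chromosomal passenger complex, which corrects attachments of chromosomes to the spindle. BIRC5 (survivin) read 73.6, 159 and 104.5 against 11.4, 1.67 and 7.64 (-4.04, SE 0.88, adjusted p = 0.0449), and CDCA8 (borealin) 197, 396 and 277 against 56.9, 48.5 and 39.04 (-2.53, SE 0.51, adjusted p = 0.0366). The ranges of the groups did not meet in any of the 3. AURKB, the kinase of the same complex, just missed the threshold with 113, 264 and 141 against 58.3, 23.4 and 41.6 (-2.04, adjusted p = 0.0546), as did CDCA3, a trigger of WEE1 destruction (-3.09, adjusted p = 0.0536).

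Other widely used markers of division gave mixed separation in luminal cells on day 0. CDK1 read 61.9, 183 and 160 in vehicle and 18.5, 26.7 and 4.24 in TGFBRi-treated rats, CCNB2 71.3, 84.6 and 63.003 against 34.1, 16.7 and 5.09, and UBE2C 28.98, 60.5 and 49.7 against 19.9, 15.0 and 12.7. The groups did not overlap in these 3 genes. MKI67, which coats mitotic chromosomes, read 200, 122 and 165 against 105.2, 112 and 48.4, also without overlap but by less. TOP2A, the topoisomerase that untangles chromosomes, overlapped (132, 201.9 and 183 against 134, 162 and 34.8), as did CENPF, a kinetochore protein (72.1, 133 and 65.5 against 112, 90.3 and 21.2).

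Over the list, 39 of 44 members had a negative estimate in luminal cells on day 0, with a median of -0.92 beside 0.21 over all genes, and 18 had an unadjusted p under 0.05. The 3 called members stand beside 1.01% of 15181 genes called in either direction. In 26 members each TGFBRi-treated rat was below each vehicle rat, as in 14.1% of all genes. Among these were 3 of 3 members of the chromosomal passenger complex and 2 of 2 of the anaphase-promoting complex. They also held 4 of 5 genes of the spindle checkpoint and centrosome kinases and their activator (AURKA, BUB1, NEK2 and TPX2). Of the 2 nuclear envelope genes (TMPO and LBR) 0 were among them, and the rest had other roles. DESeq2 called 10 members, edgeR 1, and limma on the groups of day 0 alone 13. The last fit also called a larger share of all genes than the main fit, 1669 of 14434, and the share called by DESeq2 is not given. Leaving out a rat in turn gave 0 calls without the second or the third vehicle rat or the first or second TGFBRi rat, 1 without the first vehicle rat and 6 without the third TGFBRi rat. Mean log2 leukocyte marker levels were 1.68 to 1.74 in TGFBRi-treated and 0.85 to 1.65 in vehicle luminal samples, and macrophage marker levels 1.48 to 1.87 and 0.93 to 1.25. Luminal progenitor markers were at 5.71 to 6.05 after TGFBRi and 6.17 to 6.55 in vehicle samples, without overlap, with 5 of 6 negative and a median of -0.86 (0 called, or 3 with only the groups compared). Mature luminal markers overlapped (4.65 to 5.24 against 4.83 to 5.16). The part of these markers in the result was not tested.

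In basal cells on day 0, BIRC5 and PRC1 were lower after TGFBRi. BIRC5 read 132, 187 and 90.1 in vehicle and 8.06, 9.58 and 22.3 in TGFBRi-treated rats (-3.33, SE 0.77, adjusted p = 0.0339). PRC1 read 789, 1488 and 906 against 441, 415 and 510 (-1.17, SE 0.31, adjusted p = 0.0491). Neither gene's groups overlapped. RACGAP1 came next, with 160, 305 and 142 against 84.6, 51.1 and 88.2 (-1.38, adjusted p = 0.0536).

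CDK1 (154, 304 and 170 against 100.7, 98.97 and 53.7), AURKB (157, 202.1 and 144 against 72.5, 125 and 68.9), UBE2C (78, 117 and 71.6 against 32.2, 35.1 and 25.3) and MKI67 (608, 556 and 872 against 409, 367 and 313) were separate as well in basal cells without passing the test. In all, 36 of 44 members were negative with a median of -0.89 beside 0.30 over all genes, and 14 had p under 0.05. The 2 calls stand beside 3.34% of 15643 genes. In 21 members each TGFBRi-treated rat was below each vehicle rat, as in 15.7% of all genes, while G2E3, an E3 ligase, was above. DESeq2 called 6 members, edgeR 0, and limma on the groups of day 0 alone 6. The 3.34% belongs to the main fit, and the shares of all genes called in these other fits are not given. Leaving out the first or second vehicle rat or the first or second TGFBRi rat gave 0 calls, and leaving out the third TGFBRi rat 3. Basal markers were at 8.29 to 9.40 in TGFBRi-treated and 9.67 to 9.84 in vehicle basal samples of day 0, and leukocyte markers at 2.16 to 2.95 and 0.90 to 1.98. The part of these markers in the result was not tested.

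**Figure D3:**
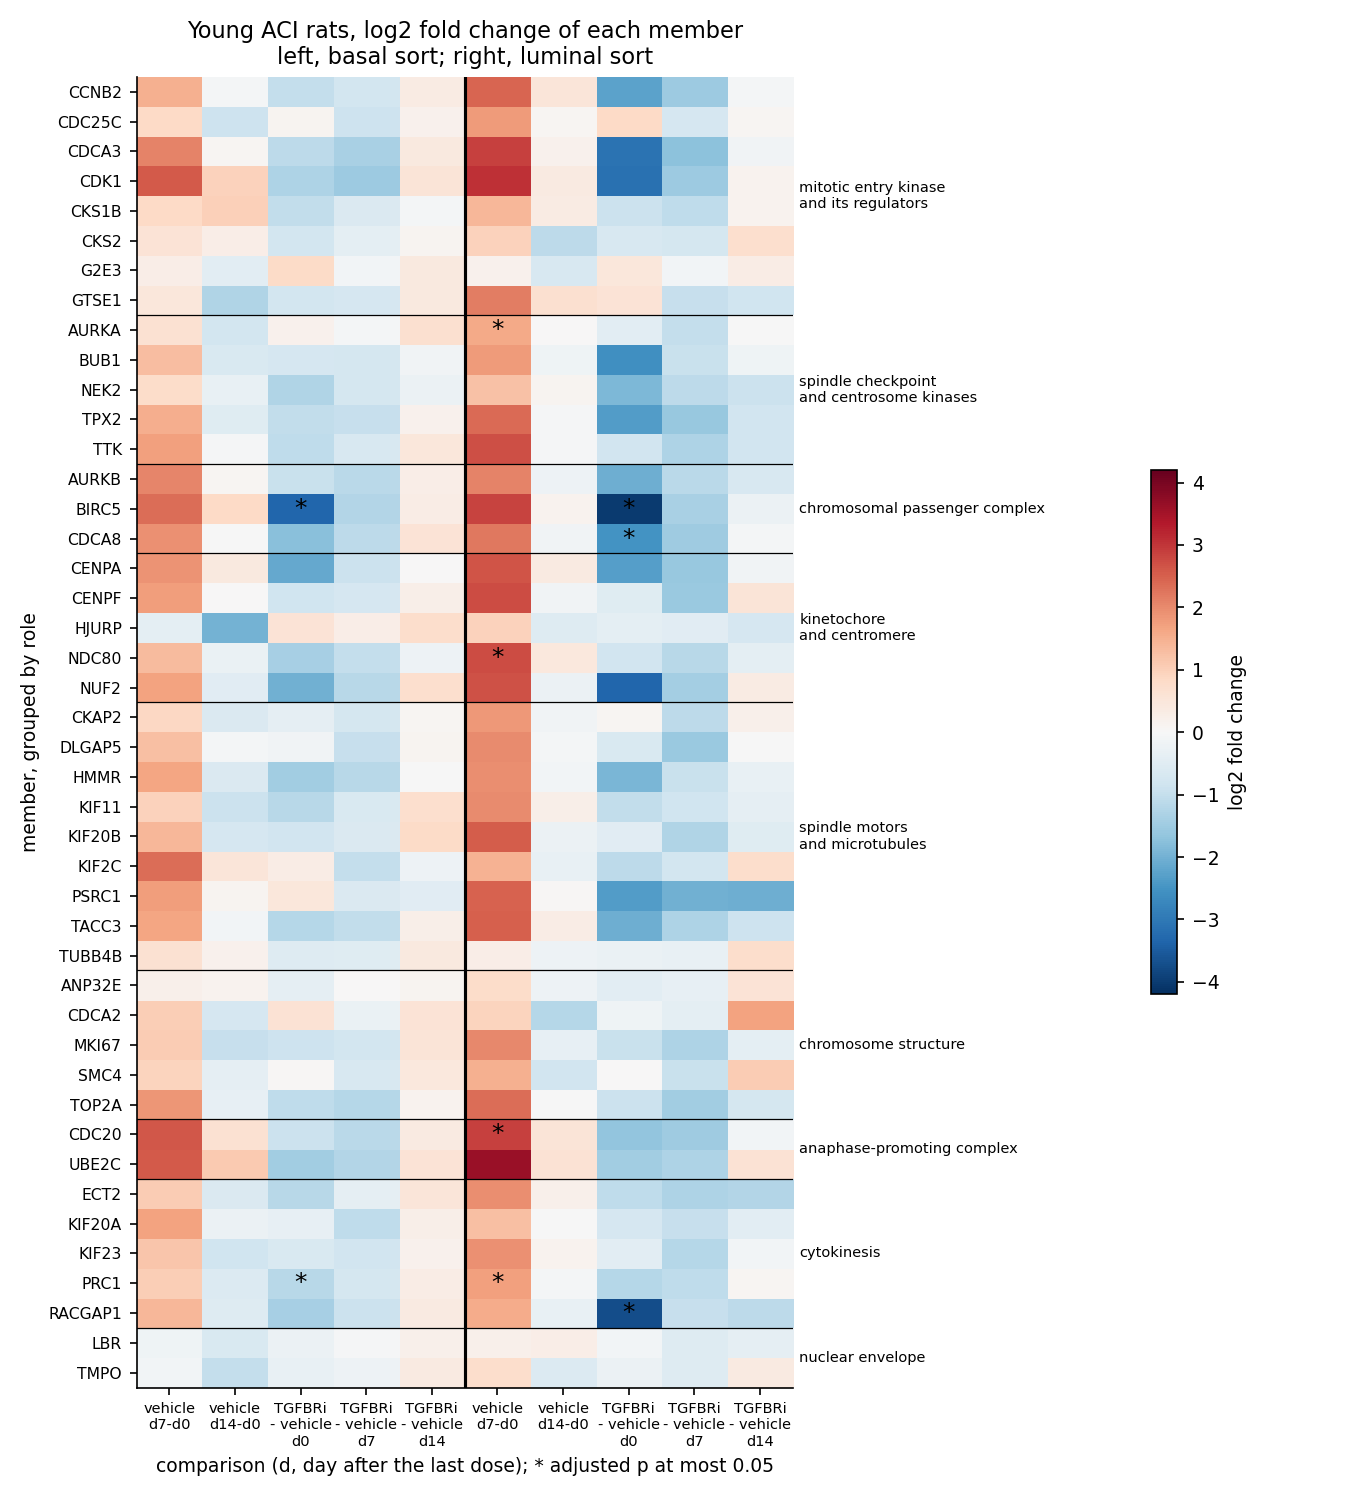
Log2 fold change (color, red higher and blue lower) of each member in young ACI rats, with members in rows by role and 5 comparisons in columns for the basal sort (left) and the luminal sort (right); an asterisk marks an adjusted p of at most 0.05 by limma. The vehicle day 7 columns are mostly red and the TGFBRi columns of day 0 and day 7 mostly blue, with asterisks at 2 basal and 3 luminal members on day 0.

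On day 7 no member passed the test in either sort, and the background was 0% in luminal and 0.00639% in basal cells. All 44 luminal estimates were nevertheless negative, with a median of -1.12 beside 0.09 over all genes, and 18 had p under 0.05 (DESeq2 called 2, edgeR 0). The share of all genes with p under 0.05 in this comparison is not given. In 23 members each TGFBRi-treated rat was below each vehicle rat, as in 4.34% of all genes. MKI67 read 1104, 510 and 468 in vehicle and 217, 250 and 336 in TGFBRi-treated rats, TOP2A 1489, 699 and 647 against 363, 253 and 355, and AURKB 935, 514 and 654 against 421, 262 and 271. The smallest p belonged to CDC20 (-1.49, SE 0.44, adjusted p = 0.326). In basal cells 42 of 44 estimates were negative with a median of -0.76 beside 0.15, 12 had p under 0.05 (DESeq2 0, edgeR 0), and 14 members did not overlap, as in 3.03% of all genes. Fibroblast markers in these basal samples were at 7.72 to 10.02 after TGFBRi and 6.14 to 8.00 in vehicle rats (5 of 5 positive, median 1.98, 0 called), and mature luminal markers at 2.23 to 3.02 and 1.87 to 2.51. In the luminal samples endothelium markers were at 1.15 to 2.87 and 0.76 to 1.91 (5 of 5 positive, median 1.02, 0 called) and luminal progenitor markers at 5.84 to 6.60 and 5.57 to 6.61. The part of these markers was not tested. Without the vehicle rat of conflicting descriptions the medians were -1.20 in luminal and -0.60 in basal cells, with 15 and 3 members at p under 0.05 and 0 calls in both. The day 7 vehicle rats enter this comparison and the one of day 7 with day 0, which are not independent.

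On day 14 the medians were 0.30 in basal cells (37 of 44 positive, 0 with p under 0.05, DESeq2 0, edgeR 0) and -0.13 in luminal cells (3 with p under 0.05, DESeq2 1, edgeR 0), with 0 members and 0% of all genes called in both. The smallest luminal p belonged to CDCA2, a phosphatase subunit of mitotic exit (1.68, adjusted p = 0.169). The differences between days were tested directly. For day 0 minus day 14 the treatment effect had medians of -1.18 in basal cells (10 members with p under 0.05, 0 called, background 0.00639%, DESeq2 4, edgeR 0) and -1.04 in luminal cells (11 with p under 0.05, 0 called, background 0.00659%, DESeq2 1, edgeR 0). For day 0 minus day 7 they were -0.11 in basal cells, turning to 0.10 with DESeq2 and 0.04 with edgeR (0 with p under 0.05), and 0.04 in luminal cells (3 with p under 0.05). Here limma called 0 members and 0% of all genes, and DESeq2 and edgeR 0 members, in both sorts.

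In CD45+ cells of young ACI rats 1 member was called on day 0. CKS2, a small binding partner of CDK1, read 9523, 9723 and 9173 in TGFBRi-treated and 4128, 4853 and 6037 in vehicle rats (log2 fold change 0.94, SE 0.24, adjusted p = 0.0496), without overlap. The call stands beside 2.85% of 14761 genes, and it was absent with edgeR, with the day 0 groups fitted alone and without the day 7 vehicle rat of conflicting descriptions, which enters the same fit. It was also absent without any 1 of the 3 TGFBRi rats or the first or second vehicle rat of day 0, while 3 members were called without the third vehicle rat. DESeq2 called 2 members. Basal markers in these CD45+ samples were at 3.47 to 4.43 in vehicle and 0.74 to 1.11 in TGFBRi-treated rats. Fibroblast markers were at 6.62 to 8.35 in vehicle and 4.62 to 6.94 in TGFBRi-treated rats (3 of 6 called lower), endothelium markers at 4.26 to 5.33 and 3.40 to 3.99 (1 of 5 called lower) and B cell markers at 2.28 to 7.88 and 6.77 to 8.17 (0 of 3 called, median 3.66). The part of these markers was not tested. The median of all members was 0.12.

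Days 7 and 14 gave no call in CD45+ cells (0% of all genes), with medians of -0.63 (-0.60 without the third TGFBRi sample of day 7, whose title names another day than its time label) and 0.07, the latter turning to -0.11 on CPM values, and 3 and 1 members with p under 0.05 (DESeq2 0, edgeR 0). Treatment effects compared between days gave medians of 0.52 against day 7 (background 0.0135%, 5 members with p under 0.05, DESeq2 0) and 0.09 against day 14, turning to -0.14 with DESeq2 and -0.04 with edgeR (0.19%, 4 members, DESeq2 1), with 0 calls by limma and edgeR. Among vehicle rats the CD45+ medians were 0.55 for day 7 (0% of all genes, 7 members with p under 0.05, DESeq2 0) and -0.11 for day 14, turning to 0.13 on CPM values (0.129%, 6 members, DESeq2 1), again with 0 calls by limma and edgeR.

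Genes of the surrounding pathway were read from 3 further lists. In luminal cells on day 0, 5 of 43 S phase genes were lower after TGFBRi and 0 higher. These were TK1, which salvages thymidine (-4.16, SE 0.62, adjusted p = 0.0197), RRM2, the ribonucleotide reductase subunit (-2.48, SE 0.35, adjusted p = 0.019), and the helicase subunits MCM6 (-2.10), MCM5 (-2.53) and MCM3 (-2.40). Of 39 other mitotic genes 1 was lower, the cell cycle transcription factor MYBL2 (-2.60, SE 0.52, adjusted p = 0.0366), with a list median of -0.90. CCNB1 (-0.90, adjusted p = 0.448), PLK1 (-1.96, adjusted p = 0.096), FOXM1 (-0.31, adjusted p = 0.891) and PCNA (-0.52, adjusted p = 0.681) did not pass. Of 11 CDK inhibitors and brakes 0 passed limma (1 with p under 0.05), with CDKN1A at -0.33 (adjusted p = 0.839). These counts stand beside the 1.01% of all genes called there. With only the groups compared 19 S phase genes and 8 other mitotic genes were lower and 1 brake was higher, beside 1669 of 14434 genes called. In basal cells on day 0, 2 of 39 other mitotic genes, 1 of 43 S phase genes and 1 of 11 brakes were called, beside 3.34% of all genes. They were CCNA2, the cyclin of S phase and G2 (-1.98, SE 0.33, adjusted p = 0.0078), MYBL2 (-2.39), TK1 (-5.08) and PKMYT1, the membrane kinase that holds CDK1 inactive (-1.81, SE 0.34, adjusted p = 0.0151), all lower. In vehicle luminal cells on day 7, 3 of 39 other mitotic genes, 2 of 43 S phase genes and 1 of 11 brakes were called, beside 0.685% of all genes. CCNA2 (2.63), CCNB1 (2.77), CEP55 (3.5), CHAF1B (2.34) and RRM2 (2.06) were higher than on day 0 and WEE1, the nuclear brake on CDK1, was lower (-1.82, SE 0.36, adjusted p = 0.0313).

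In single-cell libraries of sorted ACI cells on day 0 the direction of the members depended on the rats included. Of 47 members, 6 rose and 2 fell in basal cells (edgeR on summed UMIs, adjusted p of 0.1 or less), beside 32.9% of 14094 genes, and 3 rose and 1 fell in luminal cells, beside 25.3% of 13808 genes. The medians were 0.18, with 32 of 47 members positive, and 0.03, with 24 positive. Without the first vehicle rat 43 basal estimates were positive (median 0.51), and without the second 23. In the fit without the first, 13 members rose and 2 fell, beside 30.6% of 13585 genes called in either direction. In luminal cells 40 were positive without the first vehicle rat, and 17 without the third vehicle or the second TGFBRi rat. CKS1B, a CDK1 partner like CKS2, rose in basal cells from 71.9, 76.2 and 72 to 116, 110 and 114 UMI CPM (0.85, SE 0.09, adjusted p = 0.000444). CKS2 rose in luminal cells from 37.1, 26.8 and 25.5 to 40.8, 57.01 and 33.2 (0.83, SE 0.20, adjusted p = 0.0261), with an overlap of the groups. CKAP5, a microtubule polymerase with uses outside mitosis, fell in luminal cells from 41.4, 36.4 and 38.4 to 24.9, 19.8 and 17.8 (-0.63, SE 0.12, adjusted p = 0.0111). MKI67 read 47.9, 43.9 and 11.4 in TGFBRi-treated and 105.5, 39.2 and 39.3 in vehicle luminal cells and did not pass.

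Cells were placed in the class whose marker list held most of their UMIs, among basal, luminal progenitor and mature luminal markers. In luminal progenitor-like cells of ACI rats 10 members rose and 1 fell (median 0.67, background 29.3%), with UBE2C at 2.17 (SE 0.49, adjusted p = 0.0114) and CDC20 at 1.43. In mature luminal-like cells CKS1B (0.73) and TUBB4B, a tubulin of spindles and cilia (0.47), rose and CKAP5 (-0.83) and the kinetochore motor CENPE (-0.86) fell, with a median of -0.27 and a background of 25%. This median was -0.02 without the first vehicle rat (22 of 46 positive) and -0.04 without the third TGFBRi rat (21 positive). The 11 calls of the first class became 25 without the first vehicle rat, beside 20.5% of 12362 genes, and 6 without the third, beside 19.8% of 12444 genes. The 4 calls of the second class ranged from 3 to 7 over the rats left out. A difference between the classes was not tested.

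In sorted single-cell libraries of SD rats part of the members were higher after TGFBRi, in counts that fell to 0 in both sorts without the first vehicle rat. In luminal cells 28 of 47 members were higher and 0 lower in 6 TGFBRi-treated than in 3 vehicle rats, beside 31.9% of 14621 genes called in either direction. The median of the members was 2.17 beside 0.08 over all genes, 46 estimates were positive, and DESeq2 called 34. CDK1 read 19.5, 61.9, 64.5, 22.4, 1.90 and 7.75 UMI CPM after TGFBRi and 3.64, 6.46 and 0.912 in vehicle rats (3.38, SE 1.01, adjusted p = 0.0421). BIRC5 read 11.4, 39.6, 36.7, 16.9, 1.86 and 4.03 against 2.17, 3.90 and 0.586 (3.43, SE 0.97, adjusted p = 0.0366). In both genes 5 treated rats were above all vehicle rats and the fifth treated rat was within their range.

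MKI67 read 55.03, 105.4, 89.5, 21.98, 2.22 and 15.8 against 10.49, 18.9 and 2.67 (2.52, adjusted p = 0.0837), and TOP2A 35.9, 74.4, 63.4, 16.9, 1.01 and 12.5 against 6.24, 19.5 and 0.26 (2.34, adjusted p = 0.156, not called). UBE2C read 15.7, 64.5, 68.4, 24.5, 1.74 and 5.73 against 1.37, 7.69 and 0.13 (3.74, SE 1.25, adjusted p = 0.0571). The second and the third treated rats were the highest in each of these 3 genes. CKS1B read 81.7, 108.3, 139, 69.4, 78.2 and 88.6 against 63.9, 62.98 and 46.2 without overlap (1.06, SE 0.24, adjusted p = 0.0243).

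The luminal count in SD rats depended on the rats in it. Leaving out the first vehicle rat gave 0 calls, leaving out the second 8 and the third 2. Leaving out the second or the third treated rat, the 2 highest, gave 14 and 15, and leaving out the fifth, the lowest, 38. Mature luminal-like cells gave 35 higher and 0 lower members (median 2.73 beside 0.04, background 31.1%) and 29 to 37 calls with each rat left out. UBE2C (5.78, SE 0.99, adjusted p = 0.0116), CDK1 (3.98, SE 0.74, adjusted p = 0.0123) and TOP2A (4.34, SE 0.89, adjusted p = 0.0137) were among them. Luminal progenitor-like cells gave 17 higher and 0 lower (median 2.05, background 30.7%, DESeq2 29), with 0 calls without the first or the third vehicle rat, 1 without the second and 33 without the fifth treated rat. Shares of all genes called with a rat left out are not given for these SD luminal cells. Progenitor markers made up 35.95 to 82.8 UMIs per 10000 in treated and 25.7 to 42.5 in vehicle luminal libraries, and luminal markers 56.5 to 110 and 59.2 to 72.5. The part of these markers was not tested.

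In SD basal cells 22 of 47 members were higher and 0 lower (median 1.72 beside 0.07 over all genes, 44 positive, background 24.7%, DESeq2 31). KIF2C, a kinesin that takes microtubules apart at kinetochores, read 2.80, 5.13, 4.21, 2.21, 0.47 and 1.72 UMI CPM against 0.147, 0.338 and 0.12 (4.16, SE 0.85, adjusted p = 0.0188), with each treated rat above each vehicle rat. TUBB4B read 267, 342, 366, 378, 533 and 366 against 209, 252 and 120 (1.37, SE 0.30, adjusted p = 0.0231), and it too did not overlap. MKI67 (117, 102.2, 92.6, 15.3, 7.27 and 88.8 against 38.7, 53.4 and 11.5) and TOP2A (59.7, 81.8, 65.1, 4.65, 3.34 and 65.8 against 11.4, 29.8 and 3.95) did not pass. In these genes the fourth and the fifth treated rats lay within or under the vehicle range. Leaving out the first or the third vehicle rat gave 0 calls, leaving out the second or the third treated rat 11, and leaving out the fifth treated rat 36. Shares of all genes called in these left-out fits are not given.

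A cell was counted as G2/M-high when it held UMIs of at least 5 different members, after each cell had been thinned to 2000 UMIs and shallower cells left out. In SD luminal cells the share was 4.17, 14.0, 12.3, 3.31, 0.272 and 1.06% in treated and 0.579, 0.574 and 0.0543% in vehicle rats. In SD basal cells it was 5.84, 11.1, 9.12, 1.46, 0.551 and 5.53% against 1.45, 2.77 and 0.471%. ACI cells lay between 0.63 and 2.48% after TGFBRi and 0.661 and 2.68% in vehicle rats. Without thinning, the shares in SD luminal cells were 8.81 to 54.4% in treated and 9.94 to 30.5% in vehicle rats, at a median depth of 6830 to 14448 and 5205 to 10077 UMIs per cell. The share moves with the number of members asked for, since 45.4 to 81.8% of treated SD luminal cells held at least 3 and 0.779 to 30.6% at least 8 before thinning. These shares carry no test.

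**Figure D4:**
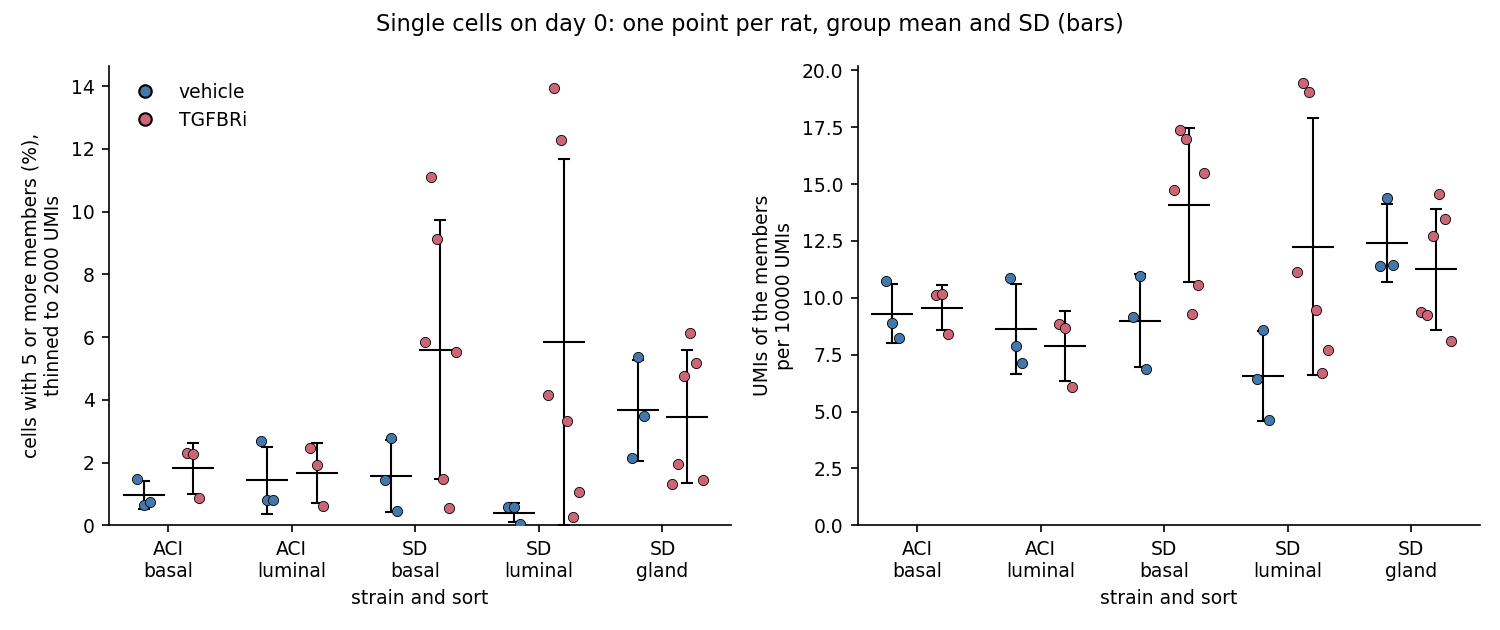
Share of cells with UMIs of 5 or more members after thinning to 2000 UMIs (left, percent) and UMIs of the members per 10000 UMIs (right) in each single-cell library; points are rats (blue vehicle, red TGFBRi), long bars group means and short bars SD. In SD basal and luminal sorts part of the TGFBRi-treated rats lie far above vehicle, up to 14.0%, while others lie within the vehicle range, and ACI libraries overlap.

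Bulk samples of young SD rats, sorted the same way and with other rat names, gave 0 calls and 0% of all genes in basal, luminal and CD45+ cells by limma, and 0 members by DESeq2 and edgeR. The members' medians were -0.57 in basal cells (39 of 44 negative, 1 with p under 0.05), -0.23 in luminal cells (0 with p under 0.05) and 0.35 in CD45+ cells (1 with p under 0.05). The labels call 2 of the 4 treated rats weak and 2 strong responders, and no split was made by this. MKI67 in basal cells read 1289, 222, 478 and 76.6 in TGFBRi-treated and 603, 401, 483 and 317 in vehicle rats, a wider spread after treatment that covered the vehicle range. In luminal cells it read 84.8, 28.1, 126 and 29.9 against 25.1, 138, 99.9 and 48.5. Fibroblast markers in these basal samples ranged from 9.32 to 10.96 after TGFBRi and from 10.31 to 10.82 in the vehicle group, near the level of the basal markers.

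In unsorted SD glands few members were called. Over all cells 1 of 47 rose and 2 fell (median 0.11, background 32%). The largest was TUBB4B, with 320, 273, 357, 358, 375 and 273 UMI CPM in treated and 519, 609 and 507 in vehicle rats (-0.92, SE 0.12, adjusted p = 0.000915), without overlap and with the opposite sign to sorted SD cells, which carry other rat names and come from another library chemistry. TACC3, a spindle protein, rose by 0.63 (adjusted p = 0.069), but 0 members rose without the first or the third vehicle rat or the fourth or the fifth treated rat. The median over all members was -0.04, -0.10 and -0.02 without the first vehicle rat and the fourth and the fifth treated rat in turn and was 0.32 without the second vehicle rat. In the same libraries CKS2 fell by 0.35 (adjusted p = 0.0978), and 1 member in place of 2 fell without the first or the third vehicle rat or without the first, the second, the fifth or the sixth treated rat. MKI67 read 14.1, 20.4, 45.4, 64.7, 54.8 and 13.2 against 16.5, 39.7 and 24.9.

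TUBB4B was also lower in 6 of the 8 classes gated by markers, at -0.82 in basal-like, -0.66 in endothelium-like, -0.81 in fibroblast-like, -0.81 in luminal progenitor-like, -0.77 in macrophage-like and -0.56 in mature luminal-like cells. Beyond it, CKAP2L fell in basal-like cells (-1.50, background 38.6%), CENPA, the centromeric histone, in macrophage-like cells (-1.16, background 6.68%), CKAP5 (0.56) and TMPO (0.72) rose in endothelium-like cells (34.4%), HJURP, the loader of CENPA, in mature luminal-like cells (2.43, background 26.8%), and AURKB (0.72) and CKS1B (0.68) in B cell-like cells (12.3%). These rises depended on single rats. In endothelium-like cells the 2 rises became 0, 1 and 14 without the first, the second and the third vehicle rat in turn. Those fits called 26.2, 24.1 and 46.4% of all genes in either direction. In mature luminal-like cells 0 members rose without any 1 of the 3 vehicle rats or the fourth or the fifth treated rat, and in B cell-like cells 0 without the first vehicle rat and 1 without any 1 of the first 3 treated rats. Fibroblast-like cells (33.8%) and luminal progenitor-like cells (26%) gave no other call. T cell-like cells gave 0 calls by edgeR (2 with p under 0.05, DESeq2 1), beside 7.34% of all genes. Fibroblast markers made up 101.8 to 193 UMIs per 10000 in treated and 56.8 to 391 in vehicle glands and leukocyte markers 11.8 to 16.1 and 3.72 to 8.04; their part in the values over all cells was not tested.

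In adult ACI rats the members were low in basal and luminal cells and most comparisons gave no call. The exception was ANP32E, a chaperone that removes the histone variant H2A.Z, in basal cells of virgin rats, with 2503, 2638, 3780 and 3330 normalized counts after TGFBRi and 2008, 1624, 1381 and 1612 in vehicle rats (0.88, SE 0.22, adjusted p = 0.0217). The groups did not overlap, and the call stands beside 8.73% of 13442 genes. The median of the members there was -1.15, but 0.92 with edgeR and 0.93 with DESeq2, so that no direction of the list can be given. 1 virgin TGFBRi rat stood apart, with MKI67 at 856 in basal and 254 in luminal cells against 0 to 72.5 and 5.64 to 18.7 in the other three. Without this rat 11 members were called in basal cells, without the third or the fourth vehicle rat 0, and with the rats' position names as a block 0. The 8.73% belongs to the main fit, and the share of all genes called without this rat is not given. In these virgin basal samples endothelium markers were at 0.86 to 2.46 after TGFBRi and 2.43 to 5.69 in vehicle rats, mature luminal markers at 1.23 to 1.74 and 2.11 to 4.15, leukocyte markers at 0.05 to 1.09 and 0.55 to 3.80 and macrophage markers at 1.09 to 1.61 and 1.13 to 6.39, and their part was not tested.

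No member was called in parous basal cells (median -0.20, background 0.00744%, 1 with p under 0.05), in virgin luminal cells (0.23, 0%, 0) or in parous luminal cells (0.74, 0.0281%, 3), by limma, DESeq2 or edgeR. The difference of the treatment effect by parity gave 0 calls by limma in basal cells (0.55, turning to -1.79 with DESeq2 and -1.78 with edgeR, background 1.04%, 3 with p under 0.05, DESeq2 1, edgeR 0). It gave 0 by all 3 tools in luminal cells (0.72, turning to -0.25 and -0.28, background 0%, 0 with p under 0.05). Parity itself gave 0 in vehicle basal cells (-0.43, 0%, 0 with p under 0.05) and luminal cells (-0.33, 0%, 4). In CD45+ cells the virgin (0.11, turning to -0.22 with the rats' position names as a block, background 0.022%, 2 with p under 0.05) and parous (0.34, 0%, 1) treatment effects, their difference (0.28, turning to -0.01 with edgeR, 0%, 3) and parity (0.19, 0%, 0) gave 0 calls, likewise by all 3 tools. Outside the members, CDKN1A, the p21 brake on CDKs, was higher after TGFBRi in virgin basal cells (2.27, SE 0.46, adjusted p = 0.0075), the samples whose other cell markers differed.

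In E2 ACI rats, luminal cells of TGFBRi-treated rats that carried E2 and stayed tumor-free were compared with those of TGFBRi-treated rats without E2. TPX2, which activates AURKA on the spindle, read 447, 408, 515 and 247 with E2 and 26.9, 31.9 and 0.457 without (5.15, SE 1.40, adjusted p = 0.0436). TTK, the checkpoint kinase, read 63.6, 21.999, 158 and 123 against 0.839, 13.3 and 4.57 (3.80, SE 1.01, adjusted p = 0.0404), and DLGAP5, a spindle fiber protein, 352, 652, 564 and 532 against 206, 133 and 81.8 (1.96, SE 0.48, adjusted p = 0.0289). MKI67 did not pass but was separate too, with 276, 241, 315 and 329 against 41.96, 112 and 10.97. These 3 called members stand beside 4.58% of 13590 genes. The median was 1.90, 37 of 44 members were positive, 13 had p under 0.05, and in 19 each rat with E2 was above each rat without, as in 8.46% of all genes. The members' summed CPM did not separate the groups, at 656 to 1037 (median 912) with E2 and 815 to 966 (median 898) without. Up to 4 members read 0 in a rat with E2 and up to 7 in a rat without. DESeq2 called 3 and edgeR 0. With the samples numbered as parts of 1 rat taken as samples of their own, 9 were called. Leaving out a rat in turn gave 0 to 2 calls, with 0 without the fourth rat with E2 or the third without it.

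Among vehicle rats, tumor-bearing rats with E2 against rats without it gave 0 calls by limma, DESeq2 and edgeR (background 1.48%), 12 members with p under 0.05 and a median of 1.14. E2 and the presence of tumors cannot be told apart there. The members' summed CPM in these vehicle rats was 601 to 748 (median 667) with E2 and 540 to 1247 (median 919) without. 1 of the 4 vehicle rats without E2 stood high, with CDK1 at 337 against 0, 14.7 and 9.23 in the others, and without it 4 members were called. The difference between the E2 effects in TGFBRi and vehicle rats was not tested. All vehicle rats with E2 bore tumors, so that treatment and tumor status cannot be told apart where tumor-free TGFBRi rats are compared with them. TGFBRi against vehicle gave 0 calls by limma, DESeq2 and edgeR without E2 (0.00, with -0.32 by DESeq2 and -0.34 by edgeR, background 0.0147%, 2 with p under 0.05), in tumor-free TGFBRi rats with E2 against the tumor-bearing vehicle rats with E2 (0.61, background 0.0147%, 1) and between tumor-bearing rats (-0.03, turning to 0.11 on CPM values, background 0.00736%, 1).

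In CD45+ cells of the E2 set, SMC4, a condensin subunit, was lower in tumor-free TGFBRi-treated rats given E2 (2535, 2284, 1596 and 2428) than in those without (4238, 4789 and 5037; -1.10, SE 0.20, adjusted p = 0.00615). The groups were far apart, and the background was 5.58% of 13483 genes. Luminal markers in these CD45+ samples were at 4.74 to 6.56 without and 3.80 to 5.17 with E2, whose part was not tested. The remaining CD45+ comparisons gave 0 calls by limma, DESeq2 and edgeR. They were TGFBRi without E2 (0.05, background 0%, 0 with p under 0.05), in tumor-free TGFBRi against tumor-bearing vehicle rats (-0.12, 0%, 2) and between tumor-bearing rats (-0.32, 0.0223%, 7; 14 calls without the second of the 2 TGFBRi rats), and E2 in vehicle rats (0.06, 0.282%, 2).

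In glands of NMU-treated SD rats ANP32E was the called member, in basal cells, with the opposite sign to adult virgin rats for TGFBRi against vehicle. It read 444, 521 and 258 in tumor-bearing TGFBRi rats, 923, 1048 and 1018 in tumor-bearing vehicle rats and 1062, 1038 and 1141 in tumor-free TGFBRi rats. Tumor-bearing TGFBRi rats were below both other groups. The log2 fold change against vehicle was -1.35 (SE 0.29, adjusted p = 0.0437, background 1.31%), and tumor-free exceeded tumor-bearing TGFBRi rats by 1.46 (SE 0.29, adjusted p = 0.0147, background 5.58%). Both comparisons share the tumor-bearing TGFBRi rats. The first call was lost without any 1 vehicle rat or the third TGFBRi rat, and the second without the first or the third tumor-free rat. The medians of the members, -0.17 and 0.09, turned to 0.25 and -0.77 with DESeq2. Tumor-free TGFBRi rats against vehicle rats, which all bore tumors, gave 0 calls (-0.13, 0%, 0 with p under 0.05, DESeq2 0, edgeR 0).

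Luminal cells of these glands gave 0 calls by limma and edgeR for tumor-free TGFBRi against vehicle (-1.05 beside -0.32 over all genes, background 0.948%, 7 with p under 0.05, DESeq2 2), tumor-bearing TGFBRi against vehicle (0.49, 0.212%, 5, DESeq2 2) and tumor-free against tumor-bearing TGFBRi (-1.85, 0%, 12, DESeq2 0). In the last, 14 members did not overlap, as 7.47% of all genes. CDK1 read 4.05, 12.9 and 0 in tumor-free and 46.8, 225 and 28.8 in tumor-bearing TGFBRi rats, against 0, 36.7 and 1.73 in vehicle rats. Taken instead as the log2 of the members' summed CPM, the level difference was 0.311 for tumor-free TGFBRi against vehicle and 0.008 against tumor-bearing TGFBRi, where the mean of logs gave -0.256 and -0.863. CD45+ cells gave 0 calls by all 3 tools, for tumor-free TGFBRi against vehicle (-0.05, 0%, 4 with p under 0.05), tumor-bearing TGFBRi against vehicle (0.52, 0.015%, 2) and tumor-free against tumor-bearing TGFBRi (-0.21, 0%, 2).

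Treatment gave no call within the NMU tumors. EPCAM+ cells had a median of 0.51 (0% of all genes, 2 members with p under 0.05, DESeq2 0, edgeR 0). CD45+ tumor cells had a median of 0.65 (0%, 8 with p under 0.05, DESeq2 1, edgeR 0), and 9 members did not overlap, as 5.89% of all genes. MKI67 there read 31.3, 33.6 and 51.6 CPM after TGFBRi and 22.5, 7.53 and 7.70 in vehicle rats, and TOP2A 24.3, 52.3 and 40.1 against 15.1, 12.02 and 7.82. The smallest p belonged to HMMR, a spindle and hyaluronan-binding protein, with 166, 441 and 381 normalized counts against 5.58, 43.6 and 6.98 (4.52, adjusted p = 0.615).

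Between tumors and glands of the same 6 rats the members differed widely. In EPCAM+ tumor cells against luminal gland cells 32 of 44 members were higher and 1 lower (limma with the rat as a block), beside 40.3% of 11374 genes called in either direction. The median was 1.94 beside 0.75 over all genes with these CPM values; with edgeR on recovered reads it was 1.85 beside 0.09, and 17 members were higher and 2 lower. CDK1 read 37.7, 44.4 and 24.6 CPM in tumors of TGFBRi rats and 15.5, 12.3 and 34.9 of vehicle rats, against 2.56, 12.98 and 1.95 and 0, 1.15 and 0.0933 in their glands (3.33, SE 0.46, adjusted p = 6.2e-05). UBE2C read 19.9, 31.1 and 20.8 and 6.02, 9.70 and 25.01 in tumors against 1.83, 6.58 and 0.311 and 0.575, 0.338 and 0 in glands (3.15, SE 0.44, adjusted p = 7.24e-05). For both genes the tumor was above the gland in each of the 6 rats. TUBB4B was the lower member (-1.18, SE 0.41, adjusted p = 0.032).

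CD45+ tumor cells against CD45+ gland cells gave 23 of 42 members higher and 1 lower, beside 35.2% of 10991 genes, with a median of 1.65 beside -0.17. UBE2C (3.23, SE 0.46), BIRC5 (3.21, SE 0.49), BUB1, a checkpoint kinase (3.23, SE 0.50), and MKI67 (2.91, SE 0.47) were higher and TUBB4B again lower (-1.20, SE 0.35). Between these CD45+ samples the T cell markers (median 2.61, 4 of 4 called) and leukocyte markers (2.14, 4 of 6) were higher in tumors, and the macrophage (-2.21, 4 of 5), fibroblast (-3.41, 4 of 5), basal (-3.74, 6 of 8) and luminal markers (-3.37, 4 of 4) lower, whose part was not tested. UBE2C read 19.04, 45.6 and 43.7 CPM in tumors of TGFBRi rats and 20.0, 17.2 and 24.1 of vehicle rats, against 1.46, 2.94 and 2.58 and 1.11, 3.55 and 0.738 in glands. Of the other lists, 25 of 38 mitotic genes and 26 of 41 S phase genes were higher in EPCAM+ tumor cells and 0 lower, among them CCNB1 (2.68, SE 0.51, adjusted p = 0.000817), TK1 (2.87, SE 0.58) and FOXM1 (1.39, SE 0.41), while PCNA did not pass (0.33, adjusted p = 0.517). Of 11 CDK inhibitors and brakes 5 were higher there, namely CDKN2B (3.57, SE 0.41), CDKN1C (3.55, SE 0.45), CDKN2A (2.95, SE 0.38), RBL2 (1.95, SE 0.42) and CDKN2C (1.56, SE 0.41), and CDKN1A was lower (-1.14, SE 0.42, adjusted p = 0.0432). The counts of these other lists stand beside 40.3% of all genes called in either direction in EPCAM+ tumor against luminal gland cells. Fibroblast markers were at 8.37 to 10.42 in EPCAM+ tumor samples beside luminal markers at 8.48 to 11.36. Against luminal gland cells fibroblast (5.77, 5 of 5 called), T cell (3.30, 4 of 4) and leukocyte markers (2.88, 4 of 6) were higher and luminal markers lower (-1.78, 4 of 4), and their part in these differences was not tested.

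**Figure D5:**
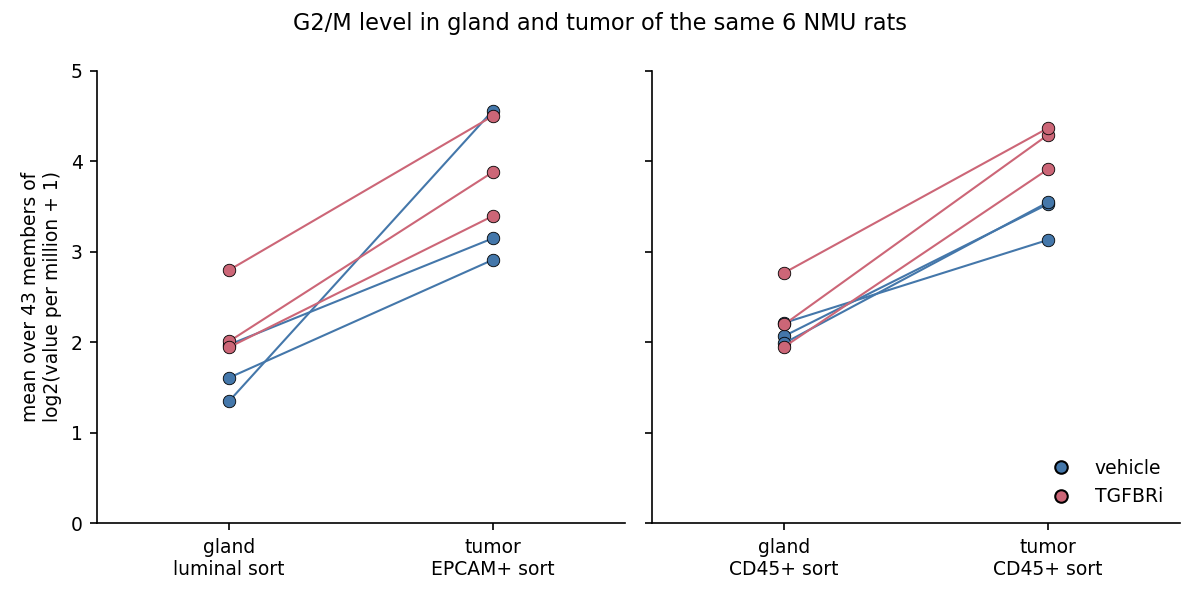
Level of the members, as the mean over 43 members of log2(CPM + 1), in gland and tumor of the same 6 NMU rats, with a line for each rat (blue vehicle, red TGFBRi); left, luminal gland and EPCAM+ tumor cells, right, CD45+ cells. On this measure the tumor lies above the gland in each of the 6 rats in both panels. The summed CPM of the members overlapped between EPCAM+ tumor and luminal gland samples. It was 603 to 1707 in tumors and 571 to 856 in glands of vehicle rats. In TGFBRi rats it was 771 to 1384 in tumors and 825 to 991 in glands.

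Between the sorts of vehicle rats, members were called in about the same share as all genes. Most of the called members were higher in basal than in luminal cells. In ACI rats on day 0, 10 of 44 were higher and 0 lower (median 0.83 beside 0.21 over all genes, background 20.5% of 15824 genes in either direction), and with the rat as a block 18 were called, beside 5472 of 15824 genes; without any 1 of the 3 rats 3 or 4 were. MKI67 read 608, 556 and 872 in basal and 200, 122 and 165 in luminal cells (2.06, SE 0.48, adjusted p = 0.00182), and CKAP2, a spindle-associated protein, 280, 288 and 170 against 58.8, 75.8 and 50.6 (1.96, SE 0.38, adjusted p = 0.000241). In SD rats 19 were higher and 2 lower (1.39 beside 0.13, background 50.1% of 13400 genes), and with the rat as a block 25 were called, beside 6838 of 13400 genes. TOP2A read 651, 444, 441 and 509 in basal and 16.0, 93.5, 48.6 and 27.6 in luminal cells (3.70, SE 0.84, adjusted p = 0.0013). CKS2 went the other way with 361, 552, 851 and 567 against 1158, 1249, 2724 and 1572 (-1.50, SE 0.33, adjusted p = 0.000957), as did TUBB4B (-1.10, SE 0.34, adjusted p = 0.0116). The sorts did not overlap in MKI67, CKAP2, TOP2A or CKS2. The median difference of the fibroblast markers was 2.02 in ACI rats (1 of 5 called, 4 with the rat as a block) and 5.22 in SD rats (5 of 5 called), and that of the endothelium markers 2.20 in ACI rats (2 of 5 called, 5 with the block), and their part was not tested.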

How the data were processed

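The deposited bulk values are a normalized signal, which per the labels and the study's methods the authors made by sequencing SMARTer v4 libraries, aligning with STAR 2.5.1b to rn6, counting reads per gene with HTSeq 0.6.1p1 and dividing by DESeq2 1.30.1 size factors. In each of the 202 samples the values were whole multiples of 1 step (100% of values, tolerance 0.001), and the recovered reads served as an alternative. The single-cell tables hold UMI counts per gene and cell, which the authors made with Cell Ranger (4.0.0 and 7.0.0) and Seurat (4.0.0 and 4.1.1) from 3′ libraries of sorted cells and 5′ libraries of glands; their methods kept cells with at least 100 genes and at most 15% mitochondrial reads and, in sorted cells only, removed those with any PTPRC read or under 2 keratin reads. Rows without a gene name (23.1 to 42.5% of reads in adult and E2 tables) were left out.

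Bulk groups were compared with limma 3.58.1 (trend, robust) in R 4.3.3 on log2(value + 1) over genes whose values summed to 10 or more, with all groups of a sort in 1 fit. Fold changes are on this scale, which understates those of low genes. Benjamini-Hochberg adjusted p-values of 0.05 or less were called, over all genes. Shares of all genes called belong to the main fit unless another fit is named. Counts of members with an unadjusted p under 0.05 stand without the share of all genes under it. Tumors and glands were compared on log2(CPM + 1) with the rat as a block. Samples numbered as parts of 1 rat were averaged. UMIs were summed per rat, and per class with at least 20 cells, and tested with edgeR 4.0.16 (quasi-likelihood, TMM, at least 10 UMIs, adjusted p of 0.1 or less). No doublet caller was run; cells in the top 5% of UMIs were left out as an alternative. Other alternatives were DESeq2 1.42.0, edgeR on recovered reads, CPM values, a pseudocount of 5, no filter, blocks, only the groups compared, and each rat left out. Tests were run on simulated counts with large changes set in well-counted genes. That run cannot show how they behave for low genes or a wide spread between rats. Python 3.11.15 was used for levels, shares and promoters.

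Basal and luminal samples share their rat, and deviations of same-rat samples correlated at -0.028 to 0.167 in 3 ACI and 0.064 to 0.112 in 4 SD rats; the values with the rat as a block are given beside the sort comparison. The members and lists were chosen with earlier results of these data known. All members could be named. Values in every sample are given for MKI67, TOP2A, CDK1, CCNB2, BIRC5, RACGAP1, AURKB, UBE2C, CENPF and called members where a result turned on them, and from other lists for CCNB1, PLK1, FOXM1, PCNA, TK1, CDKN1A and called genes fold changes only. In all 61 bulk and 17 single-cell comparisons are given; basal-like cells of the basal sorts were fitted as well.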

Additional observations from a re-analysis of the deposited data

Results flagged for a closer look

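In 31 searches over groups of 4 or 6 rats, of the level of the members in bulk samples and of the share of G2/M-high cells (with and without thinning) and the members' UMIs in single cells, a rat far from the others was looked for by Dixon's criterion, which chance meets in about 1 in 20, and 4 values from 3 rats were found. In basal cells of virgin TGFBRi-treated adult rats 1 rat was at 4.833 where the others lay between 1.325 and 1.798. The luminal cells of the same rat were at 3.622, against 1.356 to 1.675. In basal cells of parous vehicle adult rats 1 rat was at 3.001, against 1.675 to 1.769. In luminal cells of vehicle rats without E2, 1 rat was at 3.225, against 1.615 to 1.843.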

How the results depend on the processing

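Limma's count of called members was recomputed under each alternative. DESeq2 on recovered reads gave, in young ACI basal cells, 6 on day 0, 4 for the treatment effect of day 0 minus day 14, 20 for vehicle day 7 and 1 for vehicle day 14. In luminal cells it gave 10 on day 0, 2 on day 7, 1 on day 14, 1 for day 0 minus day 14, 33 for vehicle day 7 and 1 for vehicle day 14, and in CD45+ cells 2 on day 0, 1 for day 0 minus day 14 and 1 for vehicle day 14. It gave 4 in adult virgin basal cells, 1 for the difference by parity, 2 for E2 in CD45+ cells of tumor-free TGFBRi rats, 2 and 5 in NMU basal cells (tumor-bearing TGFBRi against vehicle, tumor-free against tumor-bearing), 2 and 2 in NMU luminal cells (tumor-free and tumor-bearing TGFBRi against vehicle), 1 in CD45+ tumor cells, 1 in T cell-like cells and 29 in SD luminal progenitor-like cells. edgeR gave 0 in basal and 1 in luminal cells and 0 in CD45+ cells on day 0, 2 in adult virgin basal cells, 0 for E2 in tumor-free TGFBRi luminal cells and 19 for EPCAM+ tumor cells against gland. With only the groups compared, the counts on day 0 were 6 in basal, 13 in luminal and 0 in CD45+ cells. CPM values gave 1 for basal vehicle day 7 and 1 for NMU luminal tumor-bearing TGFBRi against vehicle, a pseudocount of 5 gave 7 for luminal vehicle day 7, and no filter 0 for NMU basal tumor-bearing TGFBRi against vehicle. Without the rat of conflicting descriptions luminal vehicle day 7 gave 2 and CD45+ day 0 gave 0. The parts of 1 rat as samples gave 1 and 9 for E2 in vehicle and tumor-free TGFBRi luminal cells. The cause of the differences between alternatives was not tested, and these counts stand without the share of all genes called in the same fits.

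With the rat as a replicate block the ACI sort comparison gave 18 and the SD one 25. Adult rats share only position names, and deviations of samples with the same name correlated at -0.084 to 0.1 in basal, -0.064 to 0.034 in luminal and -0.455 to 0.298 in CD45+ cells; with that name as a block the virgin basal count was 0.

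Leaving out each rat in turn gave counts of 0 to 3 in basal, 0 to 6 in luminal and 0 to 3 in CD45+ cells for young ACI treatment on day 0. For vehicle day 7 they were 0 to 3 (basal) and 0 to 8 (luminal), and for CD45+ vehicle day 14 0 to 2. In adults they were 0 to 11 in virgin basal cells, 0 to 1 for the basal difference by parity and 0 to 1 in virgin CD45+ cells. In E2 rats they were 0 to 4 and 0 to 2 for E2 in vehicle and tumor-free TGFBRi luminal cells and 0 to 14 for tumor-bearing TGFBRi against vehicle in CD45+ cells. In NMU glands they were 0 to 1 and 0 to 3 in basal cells (tumor-bearing TGFBRi against vehicle, tumor-free against tumor-bearing) and 0 to 4 for luminal tumor-free TGFBRi against vehicle. Sort gave 3 to 4 in ACI and 13 to 23 in SD rats. Single cells gave 5 to 15 in ACI basal, 6 to 25 in ACI luminal progenitor-like and 3 to 7 in ACI mature luminal-like cells, 0 to 36 in SD basal, 0 to 38 in SD luminal and 0 to 33 in SD luminal progenitor-like cells. In glands they gave 1 to 3 over all cells, 0 to 4 in B cell-like, 1 to 4 in basal-like, 2 to 15 in endothelium-like, 1 to 2 in fibroblast-like, 0 to 2 in mature luminal-like and 0 to 2 in T cell-like cells. The counts with a rat left out stand here without the share of all genes called in the same fits.

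The difference of mean levels, on CPM values, was -0.855 for young ACI luminal day 0 (deposited values -1.223, log2 of the summed value -0.428) and -0.362 for CD45+ day 7 (-0.566 and -0.076). It was 0.262 for adult parous luminal cells (deposited values 1.052), -0.256 for NMU luminal tumor-free TGFBRi against vehicle (-1.033 and 0.311), -0.863 for tumor-free against tumor-bearing (-1.590 and 0.008), 0.214 for NMU CD45+ tumor-bearing TGFBRi against vehicle (deposited values 0.605) and 0.788 for CD45+ tumor cells (summed value 0.445). The share of G2/M-high cells in ACI luminal cells differed by -14.609 percentage points before and 0.244 after thinning. Counts moved by less than 1.5 times in 339 cases and by more in 42 outside left-out rats, and in 498 and 98 cases with a rat left out. The smaller moves include counts that were 0 and stayed 0, so that this tally says little about comparisons with calls. Members called in bulk treatment, day and E2 comparisons lost their call in 20 cases and kept it in 86 outside left-out rats, and in 68 and 40 cases with a rat left out. None of them turned its direction in these cases, but the balance of calls did in endothelium-like gland cells, from 2 higher and 1 lower to 0 and 2 without the first vehicle rat. The median of all genes moved most in EPCAM+ tumor against gland, from 0.75 with limma on CPM values to 0.09 with edgeR on recovered reads.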
